A study of Bos indicus and Bos indicus x Bos taurus and Bos taurus with 6 samples.

Results

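The genes described here encode the proteasome, the protease complex that degrades ubiquitin-tagged proteins, and were followed in whole blood of 3 cattle breeds. They were chosen by symbol alone, as all genes whose symbol is PSM with a letter from A to G and a number, which gave 50 of the 21698 genes counted. Of these, 48 encode core subunits, regulatory particle subunits, activators, an inhibitor or assembly chaperones. The other 2, PSMC3IP and PSME3IP1, are named after proteasome genes they interact with and are not subunits.

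The tissue was jugular blood from clinically healthy adult cows, and RNA sequencing gave 2 biological replicates per breed, so n = 2 per breed throughout. By the labels, Kedah-Kelantan (Bos indicus) is native to the tropics and tolerates heat, Brangus is an intermediate composite, and Holstein Friesian (Bos taurus) is a temperate breed vulnerable to heat. All cows were non-pregnant, non-lactating females, aged 4.5 ± 1.2 years and weighing 450 ± 15 kg by the labels. Every sample was taken during heat stress at the same temperature-humidity index of 44.68, so there was no unstressed group and the comparisons are between breeds only. The design text gives 4 animals per breed, and whether each library holds 1 cow or a pool is not stated.

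The 20S core is a barrel of alpha and beta rings, and its proteolytic sites are in the beta subunits PSMB5, PSMB6 and PSMB7. Interferon gamma induces PSMB8, PSMB9 and PSMB10, which take the places of these subunits in newly built particles and form the immunoproteasome. Its products are well suited to presentation on MHC class I molecules, and white blood cells carry much of it. The 19S regulatory particle, made of PSMC ATPases and PSMD subunits, recognises and unfolds ubiquitin-tagged proteins. PSME1 and PSME2 form PA28, an activator that caps the core without ATPases and is also induced by interferon gamma.

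Total counts ranged from 25275377 to 28668857 per library. The 2 Holstein Friesian libraries differed most from each other, with a median absolute log2 difference of 0.48 over 8865 genes with a mean of at least 10 CPM (counts scaled to a common library size), against 0.13 between the Kedah-Kelantan libraries and 0.18 between the Brangus libraries. Both Holstein Friesian libraries lay outside the other breeds in neutrophil and monocyte markers, and replicate 2 also in B and plasma cell markers. The summed level of 9 neutrophil markers was 603 CPM in replicate 1 and 6050 CPM in replicate 2. It was 1699 to 3278 CPM in the other breeds. That of 9 monocyte markers was 488 and 7971 CPM in the same order, and 1223 to 1713 CPM in the other breeds. For 9 B and plasma cell markers it was 2703 and 165 CPM, and 1667 to 2772 CPM in the other breeds. Between Kedah-Kelantan and Brangus, the summed level of 8 platelet markers was 298 and 345 CPM in Kedah-Kelantan and 1280 and 1407 CPM in Brangus. Of 10 erythroid markers, CA1 was at 0 in every library, and haemoglobin genes took only 0.0102 to 0.0588% of counts. The marker lists showed white cell RNA in every library.

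Nearly all proteasome genes were expressed in blood. A low-count filter was passed by 49 of the 50, and 47 had a mean of at least 10 CPM. The exception was PSMB11, the catalytic subunit of the thymus form of the proteasome, which had 1 count in Kedah-Kelantan replicate 1 and 0 in the other 5 libraries and was not tested. The genes together took 0.439 and 0.470% of the counts of the Kedah-Kelantan libraries, 0.509 and 0.524% of those of Brangus and 0.557 and 0.447% of those of Holstein Friesian.

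PSMB8, which encodes the immunoproteasome subunit that replaces PSMB5, was the most abundant of all 50 genes per length. Levels between genes are given in FPKM, the authors' counts scaled for gene length and library size, averaged here over the 6 libraries. PSMB8 averaged 631 FPKM, followed by PSME1 at 274 FPKM and PSMB9 at 204 FPKM. Next came PSMB1, a structural core gene, at 159 FPKM and PSME2 at 152 FPKM. Interferon-induced genes thus held 4 of the 5 highest levels, while PSMB10, also interferon-induced, ranked 27 of the 50 at 50.2 FPKM.

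Within the 20S core, PSMA7 at 128 FPKM was the highest and PSMA8 at 0.167 FPKM the lowest alpha gene. Of the structural beta genes, which line the ring without a proteolytic site, PSMB1 was the highest and PSMB2 at 84.4 FPKM the lowest. Of the constitutive catalytic genes, PSMB7 at 83.5 FPKM was the highest and PSMB5 at 18.3 FPKM the lowest. In the 19S particle, the ATPase genes ran from 24.6 FPKM for PSMC1 to 104 FPKM for PSMC5. The non-ATPase genes ran from 29.9 FPKM for PSMD1, a scaffold of the base, to 82.6 FPKM for PSMD4, a ubiquitin receptor. The 19S assembly chaperones were lower, from 9.69 FPKM for PSMD10 to 23.8 FPKM for PSMD5. The 20S assembly chaperones ran from 15.4 FPKM for PSMG3 to 103 FPKM for PSMG4. Of the activators, PSME4, which encodes PA200, was the lowest at 8.18 FPKM, and PSMF1, which encodes the inhibitor PI31, had 39.4 FPKM.

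**Figure D1:**
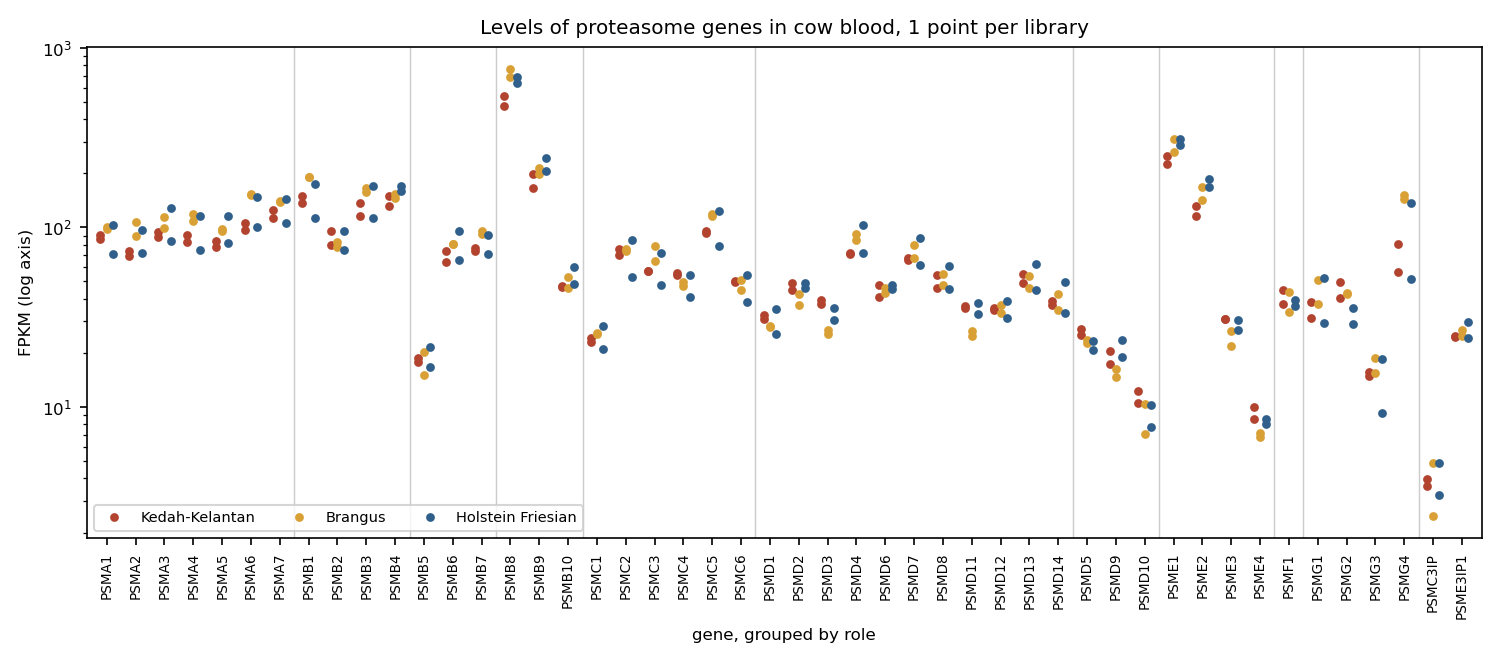
The level of 48 proteasome genes in FPKM on a log axis, 1 point per library, grouped by role and coloured by breed (PSMA8 and PSMB11, at or near 0, are left out). PSMB8 lies above every other gene in all 6 libraries.

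Each immunoproteasome gene was set against the constitutive subunit whose place it takes. PSMB8 had 475 and 535 FPKM in Kedah-Kelantan, 691 and 758 FPKM in Brangus, and 688 and 636 FPKM in Holstein Friesian. PSMB5 had 17.8 and 18.6 FPKM in Kedah-Kelantan, 20.2 and 15.1 FPKM in Brangus, and 21.5 and 16.8 FPKM in Holstein Friesian. PSMB8 was thus 26.7 and 28.7 times PSMB5 in Kedah-Kelantan, 34.2 and 50.4 times PSMB5 in Brangus, and 32.0 and 37.9 times PSMB5 in Holstein Friesian. Both Kedah-Kelantan ratios lay below the other 4.

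PSMB9 had a smaller excess over PSMB6. The ratio was 2.58 and 2.69 in Kedah-Kelantan cows, 2.43 and 2.65 in Brangus cows and 2.55 and 3.13 in Holstein Friesian cows, and the breeds overlapped. PSMB10 was listed below PSMB7 in every library. The ratio was 0.625 and 0.614 in Kedah-Kelantan cows, 0.499 and 0.553 in Brangus cows and 0.659 and 0.681 in Holstein Friesian cows, and the breeds did not overlap. PSMB7 averaged 75.5 FPKM in Kedah-Kelantan, 94.2 FPKM in Brangus and 80.9 FPKM in Holstein Friesian. PSMB10 averaged 46.8, 49.6 and 54.1 FPKM in that order. The level of PSMB10 rests on the length the authors divided by, which was 2599 bases, against 953 bases for PSMB7 and 1087 bases for PSMB8. In the deposited positions PSMB10 also shares 1171 bases with LCAT on the same strand. The ratio between breeds does not depend on that length.

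The variation of these ratios between breeds was tested by an exact permutation of the 6 libraries over the 3 breeds, where 0.0667 is the smallest p the design allows. The p was 0.267 for PSMB8 to PSMB5, 0.733 for PSMB9 to PSMB6 and 0.0667 for PSMB10 to PSMB7, or 0.4, 0.733 and 0.2 after Benjamini-Hochberg adjustment over the 3 pairs (exact permutation). No pair could pass a threshold of 0.05. On the log2 scale, the mean PSMB10 to PSMB7 ratio was -0.69 ± 0.02 in Kedah-Kelantan cows, -0.93 ± 0.11 in Brangus cows and -0.58 ± 0.03 in Holstein Friesian cows (SD, n = 2 each).

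Averaged over the 3 pairs, the log2 ratio of immunoproteasome to constitutive genes was 1.83 ± 0.03 in Kedah-Kelantan cows, 1.93 ± 0.20 in Brangus cows and 2.01 ± 0.14 in Holstein Friesian cows (SD, n = 2 each). The differences were -0.18 for Kedah-Kelantan minus Holstein Friesian, -0.08 for Brangus minus Holstein Friesian and -0.10 for Kedah-Kelantan minus Brangus, and are given with no test. Leaving out Holstein Friesian replicate 1 moved the first to -0.28, and leaving out replicate 2 moved it to -0.08. The last 2 changed sign without 1 library, to 0.06 without Brangus replicate 1 or 0.01 without Holstein Friesian replicate 2 for Brangus minus Holstein Friesian, and to 0.04 without Brangus replicate 2 for Kedah-Kelantan minus Brangus. The immunoproteasome genes made up 81.5 to 85.3% of the summed FPKM of the 6 catalytic genes in every library.

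**Figure D2:**
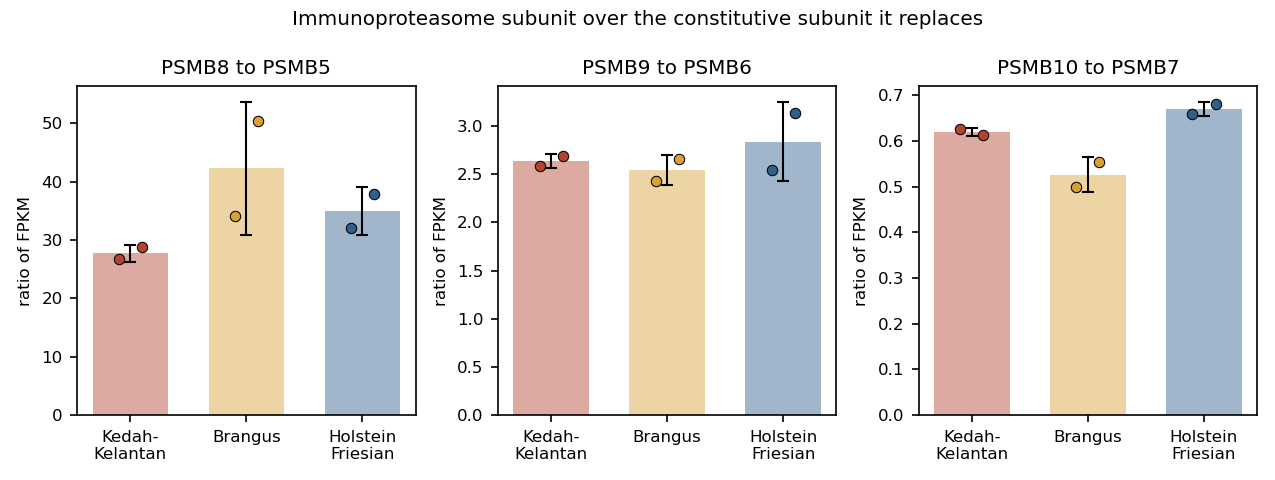
The ratio of FPKM of each immunoproteasome gene to the constitutive gene it replaces, by breed, with bars for the mean of 2 libraries, lines for 1 SD and points for the libraries. PSMB8 to PSMB5 runs from 26.7 to 50.4 and is lowest in Kedah-Kelantan, PSMB9 to PSMB6 overlaps between breeds, and PSMB10 to PSMB7 stays below 1 and is lowest in Brangus.

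Levels between breeds are given in CPM scaled by TMM, and differences as log2 fold changes from edgeR's quasi-likelihood test, in which the 3 breeds share 1 estimate of the spread. The 3 comparisons share libraries, so they are not independent of each other. In bulk blood, fewer cells of a type and less RNA per cell cannot be told apart.

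Kedah-Kelantan against Holstein Friesian addresses the contrast between the heat-tolerant and the heat-vulnerable breed. Most proteasome genes had lower levels in Kedah-Kelantan, but none passed the test. Of 49 tested genes, 41 had a log2 fold change below 0 and 8 above, with a median of -0.23 against -0.03 over the 13455 genes tested. EdgeR called 0 of the 49 at an adjusted p under 0.05, and 0.00743% of all genes. At an unadjusted p under 0.05 there were 5 of the 49, or 4 without PSMA8, and 4.04% of all genes tested. DESeq2 called 0 of them and 0.675% of all genes. Both Kedah-Kelantan libraries lay below both Holstein Friesian libraries for 22 genes, or above them for 4, where 12.6% of all tested genes lay below and 18.1% above. The 4 include PSMA8, which passed the filter only through Kedah-Kelantan and so had to differ.

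On the lower side, the smallest p-values were those of interferon-induced genes. PSME2 had 86.2 and 101 CPM in Kedah-Kelantan and 134 and 165 CPM in Holstein Friesian. PSMB8 had 464 and 533 CPM in Kedah-Kelantan and 719.5 and 738 CPM in Holstein Friesian. PSME1 had 203 and 228 CPM in Kedah-Kelantan and 299 and 307 CPM in Holstein Friesian. For all 3 genes both Kedah-Kelantan libraries were the lower ones. The log2 fold changes were -0.68 (SE 0.20) for PSME2, -0.55 (SE 0.18) for PSMB8 and -0.49 (SE 0.18) for PSME1, each at an adjusted p of 0.995 in edgeR. PSMB9 gave -0.46 (SE 0.18) and PSMB10 -0.36 (SE 0.17). The constitutive genes gave -0.22 (SE 0.22) for PSMB5, -0.38 (SE 0.20) for PSMB6 and -0.25 (SE 0.16) for PSMB7. The 3 immunoproteasome genes and the 3 constitutive genes thus all had lower CPM in Kedah-Kelantan, with no overlap of libraries. In FPKM, which is not scaled by TMM, the 3 constitutive genes overlapped and the 3 immunoproteasome genes did not.

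Of the other groups, 7 of 8 alpha genes, 15 of 17 genes of 19S subunits and 4 of 4 structural beta genes had a log2 fold change below 0. On the higher side, apart from PSMA8, the smallest p-values were those of PSMG2, a 20S assembly chaperone, at 0.33 (SE 0.19), and PSMD10, also known as gankyrin, at 0.19 (SE 0.25), both with an edgeR adjusted p of 0.995. PSME3, the nuclear PA28 gamma, PSME4 and PSMF1 stood close to 0, at -0.06, 0.00 and -0.04. Their signs turned under other scalings.

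Calls in this comparison depended on which Holstein Friesian library was kept. Without replicate 1, edgeR called 2 genes lower in Kedah-Kelantan, PSMB8 and PSME2, where 10.7% of all genes were called lower. Without replicate 2 it called 9 lower, among them PSMA6, PSMB6, PSMB8 and PSMD4, where 5.35% were called lower. PSMB8 was the 1 gene called both times, at -0.57 in each fit, with an edgeR adjusted p of 0.0282 without replicate 1 and 0.0361 without replicate 2. In these fits the single Holstein Friesian library is assumed to vary like the other breeds. The monocyte and B cell marker levels given above differed between those 2 libraries, and their part in these calls was not tested.

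The Holstein Friesian libraries differed from each other in most proteasome genes. Of 47 proteasome genes at a mean of at least 10 CPM, 37 were lower in replicate 2 than in replicate 1, with a median log2 difference of -0.27. The largest gap was that of PSMG4, with 64.9 CPM in replicate 1 and 27.3 CPM in replicate 2. PSMB8 was nearly level between them, PSME2 was higher in replicate 2, and so was PSMD11, with 80.3 CPM in replicate 1 and 103 CPM in replicate 2. The median absolute log2 difference of the proteasome genes was 0.30 in Holstein Friesian, 0.14 in Kedah-Kelantan and 0.12 in Brangus.

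**Figure D3:**
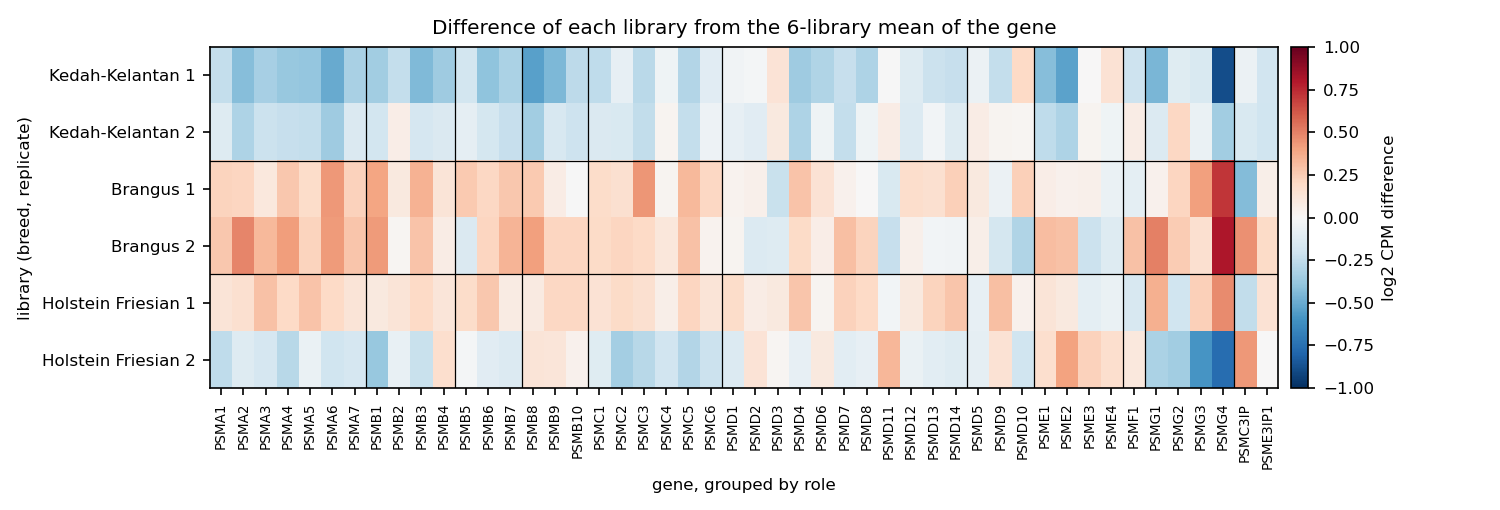
The log2 CPM of 48 proteasome genes in each library minus the mean of the gene over the 6 libraries, by role, with red for higher and blue for lower (PSMA8 and PSMB11 are left out). The Kedah-Kelantan rows are mostly blue, with median differences of -0.25 and -0.14, the Brangus rows mostly red, with 0.16 and 0.21, and the Holstein Friesian rows split, with 0.15 and -0.10.

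Brangus against Holstein Friesian sets the intermediate against the heat-vulnerable breed. Differences were small and ran mostly the other way. Of 49 tested genes, 35 had a log2 fold change above 0 and 13 below, with a median of 0.10 against -0.03 over all genes. EdgeR called 0 of the 49, and 0.00743% of all genes. The count at an unadjusted p under 0.05 was 1 of the 49, where 7.62% of all genes were under it. DESeq2 called 0 of them and 282 of 14106 genes. Both Brangus libraries lay above both Holstein Friesian libraries for 15 genes and below them for 4, where 18.4% of all tested genes lay above and 15.9% below.

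The smallest p-values on the higher side were those of PSMG2, PSMB1 and PSMA6. PSMG2 had 44.9 and 46.3 CPM in Brangus and 33.6 and 30.4 CPM in Holstein Friesian, or a log2 difference of 0.51 (SE 0.19; edgeR adjusted p = 0.649). PSMB1 had 178 and 181.5 CPM in Brangus and 145 and 104 CPM in Holstein Friesian, or a log2 difference of 0.53 (SE 0.21; edgeR adjusted p = 0.653). PSMA6, an alpha ring gene, had 178 and 177 CPM in Brangus and 152 and 115 CPM in Holstein Friesian, or a log2 difference of 0.41 (SE 0.20; edgeR adjusted p = 0.659). The breeds did not overlap for these 3 genes, and for PSMB1 and PSMA6 Holstein Friesian replicate 2 was much lower than replicate 1.

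On the lower side stood PSMD11, a non-ATPase subunit of the 19S lid, with 73.5 and 69.5 CPM in Brangus and 80.3 and 103 CPM in Holstein Friesian. The fitted difference was -0.36 on the log2 scale (SE 0.18; edgeR adjusted p = 0.663). PSMD9, a 19S assembly chaperone, gave -0.35 (SE 0.22), and PSMD3, another lid subunit, gave -0.23 (SE 0.15).

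The immunoproteasome genes showed no common direction here. PSMB8 had 813 and 901 CPM in Brangus and gave 0.23 (SE 0.18), while PSMB9 and PSMB10 both gave -0.02 (SE 0.18 and 0.17). PSME1 gave 0.04 (SE 0.18) and PSME2 -0.09 (SE 0.20). PSMB5, PSMB6 and PSMB7 gave -0.01, 0.12 and 0.33. The signs of PSMB5, PSMB9 and PSMB10 turned under upper-quartile scaling. Without Holstein Friesian replicate 1, edgeR called 10 genes higher and 1, PSMD11, lower in Brangus, where 14.5% of all genes were called higher and 16.8% lower. Without replicate 2 it called 0, and 6.06% of all genes.

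Kedah-Kelantan against Brangus gave the largest differences. Lower levels in Kedah-Kelantan were found for 42 of 49 tested genes, with a median log2 fold change of -0.35 against 0.02 over all genes. In the fit to all 3 breeds edgeR called 0 of the 49 and 0% of all genes. At an unadjusted p under 0.05 there were 16, or 15 without PSMA8, and 11.6% of all genes. DESeq2 called 2, PSMB8 and PSMA6, both lower, where it called 2.17% of all genes lower. The DESeq2 adjusted p was 0.00701 for PSMB8 and 0.0207 for PSMA6. Both Kedah-Kelantan libraries lay below both Brangus libraries for 35 genes and above them for 4, where 30.7% of all tested genes lay below and 33.5% above. PSMA8, which had to differ, is again among the 4.

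The smallest p-values belonged to PSMB8, PSMA6 and PSMA2. PSMB8, with the CPM given above, averaged 498 ± 48.7 CPM in Kedah-Kelantan and 857 ± 62.4 CPM in Brangus (SD, n = 2 each). Its log2 fold change was -0.78 (SE 0.18; edgeR adjusted p = 0.353). PSMA6 had 93.0 and 103 CPM in Kedah-Kelantan and 178 and 177 CPM in Brangus, or a log2 difference of -0.86 (SE 0.20; edgeR adjusted p = 0.353). PSMA2, another alpha ring gene, had 89.2 and 96.7 CPM in Kedah-Kelantan and 139.6 and 169 CPM in Brangus, or a log2 difference of -0.73 (SE 0.19; edgeR adjusted p = 0.353). Both Kedah-Kelantan libraries were the lower ones for these 3 genes, which were named for their small p.

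Mean levels in CPM were lower in Kedah-Kelantan in both arms of the catalytic comparison. PSMB9 had 147 and 179.7 CPM in Kedah-Kelantan and 212 and 233 CPM in Brangus, and PSMB10 had 108 and 112 CPM in Kedah-Kelantan and 129.5 and 151 CPM in Brangus. PSMB6 had 46.0 and 54.0 CPM in Kedah-Kelantan and 70.4 and 71.0 CPM in Brangus, and PSMB7 had 63.5 and 67.1 CPM in Kedah-Kelantan and 95.2 and 100.1 CPM in Brangus. PSMB5 overlapped, with 21.9 and 23.3 CPM in Kedah-Kelantan and 29.9 and 22.5 CPM in Brangus. In FPKM, which is not scaled by TMM, PSMB9 and PSMB10 overlapped too. PSMB5 then averaged 18.2 FPKM in Kedah-Kelantan and 17.6 FPKM in Brangus. The log2 fold changes were -0.44 for PSMB9 and -0.35 for PSMB10, against -0.21 for PSMB5, -0.50 for PSMB6 and -0.58 for PSMB7.

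By role, 7 of 8 alpha genes, 4 of 4 structural beta genes and 6 of 6 ATPase genes had a log2 fold change below 0, with medians of -0.50, -0.48 and -0.34. Of the 11 non-ATPase genes 9 were below 0, with a median of -0.25. The 4 chaperones of 20S assembly were also below 0, and PSMG4 had the most negative value of all members at -1.37 (SE 0.44; edgeR adjusted p = 0.388). PSMG4 had 25.03 and 36.6 CPM in Kedah-Kelantan, 76.9 and 81.9 CPM in Brangus, and 64.9 and 27.3 CPM in Holstein Friesian. It was the most variable of the 47 well-expressed members, with a coefficient of variation of 49.0% over the 6 libraries, where the median of these members was 15.2% and that of 8865 genes 20.3%.

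Among the activators, the PA28 pair lay below 0 and the other members near or above it. PSME1 gave -0.53 (SE 0.18) and PSME2 -0.59 (SE 0.20), both with an edgeR adjusted p of 0.388, while PSME3 gave 0.09 (SE 0.19) and PSME4 0.15 (SE 0.17). PSME3 turned to -0.04 without Brangus replicate 2. PSMF1 gave -0.17 (SE 0.22). Higher values in Kedah-Kelantan, apart from PSMA8, were led by PSMD3, with 74.8 and 72.8 CPM in Kedah-Kelantan and 58.2 and 62.1 CPM in Brangus, or a log2 difference of 0.29 (SE 0.15; edgeR adjusted p = 0.501). PSMD11 followed at 0.23 (SE 0.18; edgeR adjusted p = 0.67).

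In a fit to the 4 libraries of these 2 breeds alone, which leaves out the wide Holstein Friesian spread, edgeR called 19 genes lower in Kedah-Kelantan, where 10.2% of all genes were called lower. It called PSMA8 higher, where 9.09% were called higher, but PSMA8 passed the filter only through Kedah-Kelantan and nothing is read from its call. The lower genes were PSMA1 to PSMA7, PSMB1, PSMB3, PSMB6, PSMB7, PSMB8, PSMC1, PSMC3, PSMC5, PSMD4, PSME1, PSME2 and PSMG4. PSMB9 and PSMB10 were not among them. The edgeR adjusted p was 0.00487 for PSMB8 and 0.00273 for PSMA6 in that fit. Summed levels of most blood cell marker lists also differed between these breeds with no overlap, the platelet list given above among them. They were higher in Kedah-Kelantan for 7 eosinophil, basophil and mast cell markers, with 266 and 278 CPM in Kedah-Kelantan and 46.8 and 42.4 CPM in Brangus, and for 10 NK and cytotoxic cell markers, with 709 and 787 CPM in Kedah-Kelantan and 271 and 370 CPM in Brangus. They were lower in Kedah-Kelantan for 9 B and plasma cell markers, with 1667 and 1813 CPM in Kedah-Kelantan and 2772 and 2410 CPM in Brangus, and for 10 erythroid markers, with 223 and 273 CPM in Kedah-Kelantan and 571 and 730.5 CPM in Brangus. Single markers did not all follow these sums. In the erythroid list, HBB alone had 144 and 181 CPM in Kedah-Kelantan and 438 and 634 CPM in Brangus. GATA1 of that list went the other way, with 15.9 and 18.2 CPM in Kedah-Kelantan and 5.57 and 7.13 CPM in Brangus. So did the platelet marker ITGA2B, and PAX5, FCER1A, CPA3 and GZMA were among the markers that overlapped. The part of the marker lists in the proteasome differences was not tested.

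**Figure D4:**
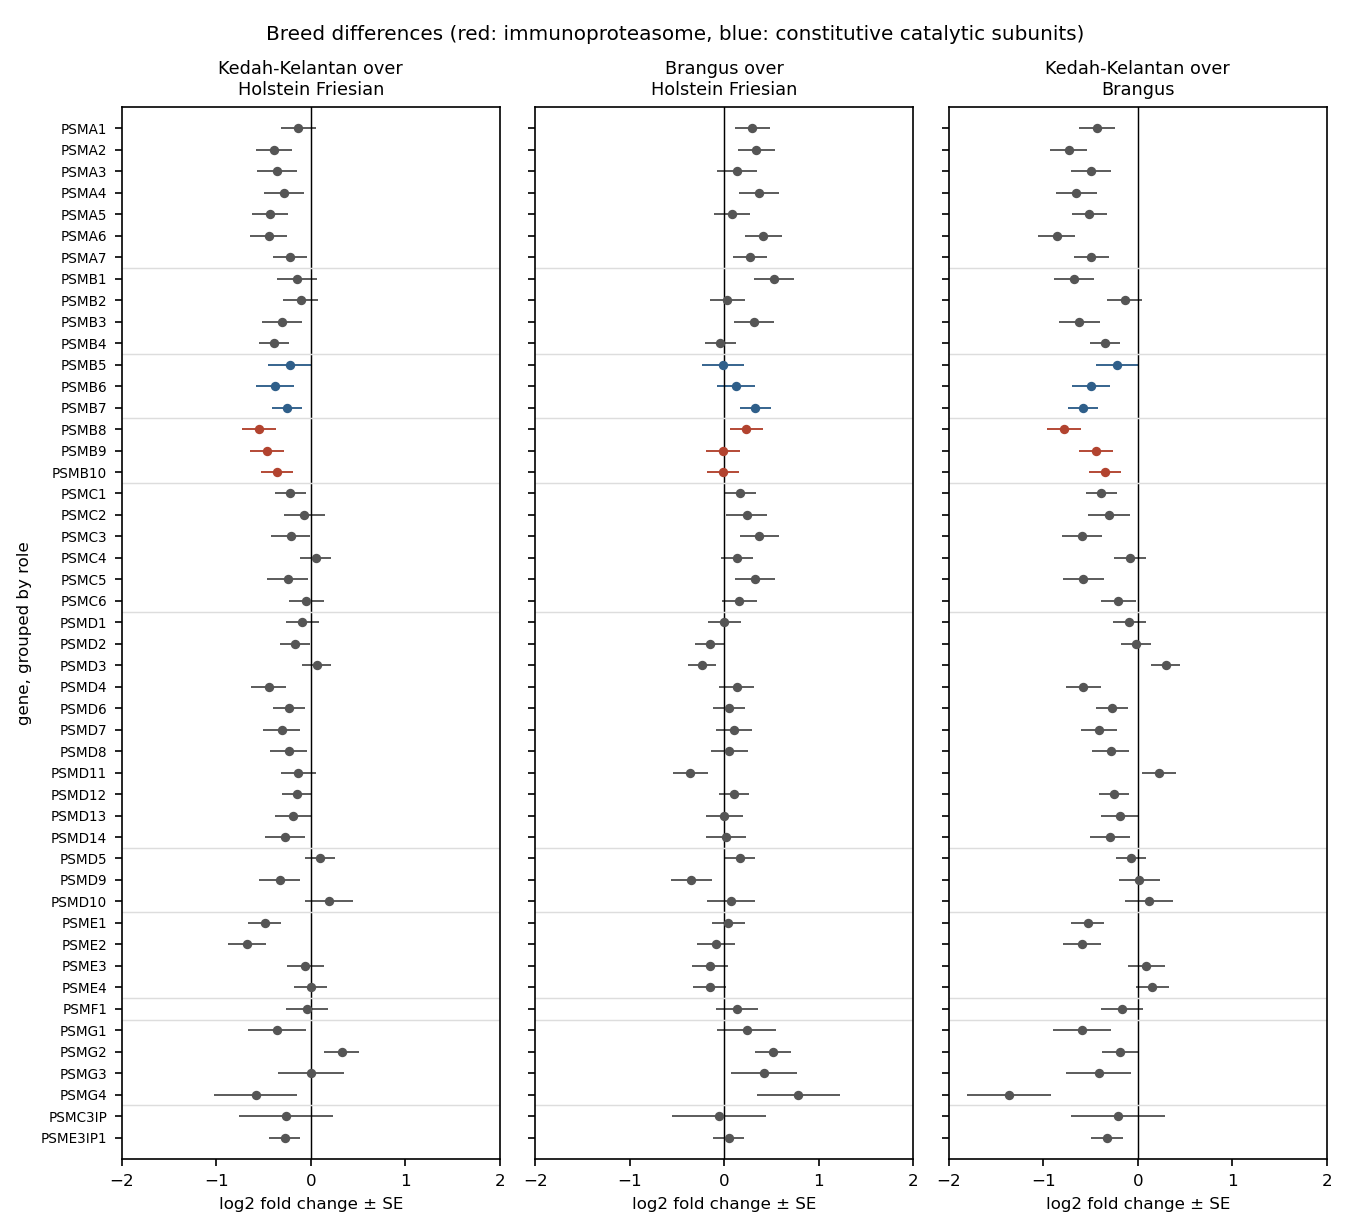
Log2 fold changes of 48 proteasome genes with their SE as bars, in 3 panels for Kedah-Kelantan over Holstein Friesian, Brangus over Holstein Friesian and Kedah-Kelantan over Brangus (PSMA8 and PSMB11 are left out). Most points lie left of 0 in both Kedah-Kelantan panels, with medians of -0.23 and -0.35, and the Brangus over Holstein Friesian panel has a median of 0.10.

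PSMA8, the alpha subunit known from the testis form of the proteasome, was detected in 1 breed. It had 20 and 50 counts in Kedah-Kelantan, with exact 95% Poisson intervals of 12.2 to 30.9 and 37.1 to 65.9, and 0 counts in all 4 libraries of the other breeds. It passed the low-count filter only through Kedah-Kelantan, so it had to differ. With 3 counts per library as the floor, the mean of 1.13 CPM in Kedah-Kelantan was 8.82 times the floor in Brangus. It was 10.6 times the floor in Holstein Friesian. These folds leave out the counting error of the Kedah-Kelantan mean. The level of PSMA8 remained far below that of the other alpha genes.

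Some counts may be shared with other genes, since no source used here gives the counting settings. LOC781254, described in the deposited table as a regulatory subunit 10B-like gene and thus a copy of PSMC6, had 11.3 and 8.48 CPM in Kedah-Kelantan, 15.7 and 17.6 CPM in Brangus, and 8.22 and 7.60 CPM in Holstein Friesian. PSMC6 itself had 81.9 and 85.4 CPM in Kedah-Kelantan, 102 and 90.9 CPM in Brangus, and 96.9 and 76.2 CPM in Holstein Friesian. LOC132344816, described as PSME3-like, had at most 1.03 CPM. In the deposited positions 11 of the 50 genes overlap another gene, 3 of them on the same strand, and without stated strand settings reads from opposite strands cannot be told apart. PSMD13 is placed on chromosome 11 there and on chromosome 29 in a reference gene table of another cattle assembly, so its identity is uncertain. The other 49 had the same chromosome name in both.

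PSMB8 and PSMB9 lie close together in the MHC region of chromosome 23, at 7173032 to 7176410 and 7186453 to 7193346 in the deposited positions. PSME1 and PSME2 lie close together on chromosome 10, at 21012734 to 21015395 and 21004530 to 21007790. PSMB5 lies further along the same chromosome, at 21821507 to 21827026, where its start overlaps PSMB11 by 314 bases on the opposite strand. PSMB6 is on chromosome 19, PSMB7 on chromosome 11 and PSMB10 on chromosome 18.

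Genes that work with the proteasome but lie outside the symbol rule were counted in 4 lists, and edgeR called 0 of their members in each comparison. At an unadjusted p under 0.05 there were 8 of 49 for Kedah-Kelantan against Brangus, 3 of 49 for Brangus against Holstein Friesian and 1 of 49 for Kedah-Kelantan against Holstein Friesian. The shares over all genes were 11.6%, 7.62% and 4.04% in that order. DESeq2 calls for lower levels in Kedah-Kelantan than in Brangus included POMP, RPS27A and B2M, and it called 0 members in both comparisons with Holstein Friesian. Between Kedah-Kelantan and Brangus, 6475 of the 13455 tested genes had a log2 fold change below 0. Of 23 other proteasome genes, 16 were below 0, with a median of -0.20. The smallest p was that of POMP, the chaperone needed to build the core, with 100.2 and 111 CPM in Kedah-Kelantan and 186 and 178 CPM in Brangus, or a log2 difference of -0.79 (SE 0.19; edgeR adjusted p = 0.353). Of 6 ubiquitin genes and activating enzymes, 4 were below 0, led by RPS27A, which encodes ubiquitin fused to a ribosomal protein, at -1.62 (SE 0.31; edgeR adjusted p = 0.353).

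The peptide loading genes, which carry proteasome products to MHC class I, were split for Kedah-Kelantan against Brangus, with 6 of 10 below 0 and a median of -0.02. B2M, the light chain of MHC class I, had 3511 and 4059 CPM in Kedah-Kelantan and 5917 and 7281 CPM in Brangus, or a log2 difference of -0.80 (SE 0.21; edgeR adjusted p = 0.353). Of 10 genes of interferon gamma signalling, 6 were below 0, and the smallest p was that of the transcription factor IRF8 at -0.78 (SE 0.32; edgeR adjusted p = 0.43).

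Against Holstein Friesian, the fitted level in Kedah-Kelantan was the lower one for 19 of 23 other proteasome genes and 5 of 6 ubiquitin genes. So it was for 10 of 10 peptide loading genes and 8 of 10 interferon gamma genes, and for 7196 of all 13455 tested genes. The smallest p-values in the lists of proteasome, ubiquitin and peptide loading genes were those of POMP at -0.36, RPS27A at -0.60 and PDIA3, a chaperone of class I assembly, at -0.47. For Brangus against Holstein Friesian, the smallest p-values were those of TXNL1, a 26S-bound thioredoxin, at 0.54, RPS27A at 1.02, ERAP1, a peptide-trimming enzyme, at -0.89, and IRF2 at -0.35. The edgeR adjusted p of these ranged from 0.645 to 0.662 in that comparison.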

How the data were processed

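Whole-blood RNA of 3 cattle breeds was sequenced, with 2 libraries per breed. Per the submitters' processing notes, with no roles or settings, the build was ARS-UCD1.2 and the tools included HISAT2 2.2.1 and featureCounts 2.0.1, with Trimmomatic 0.39, FastQC 0.11.9 and DESeq2 1.38.0 also listed. Per the file headers, the authors deposited raw read counts per gene and FPKM values, which divide by gene length and library total. Whether the libraries came from separate animals is known only as far as the labels call them biological replicates, so p-values measure the spread between these libraries.

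The test on counts was that of edgeR 4.0.16 under R 4.3.3 (TMM scaling, filterByExpr, robust quasi-likelihood fit with breed as the only term over all 6 libraries). Adjustment was by Benjamini-Hochberg over 13455 genes, with calls at an adjusted p under 0.05. The standard error (SE) belongs to the log2 fold change. The fit left 3 residual degrees of freedom, and its common biological coefficient of variation came to 0.431. The code was tested on simulated data for the 3 comparisons in the order used above. Of 100 simulated 4-fold changes, edgeR recovered 37, 54 and 47, and DESeq2 79, 84 and 84. Among unchanged genes edgeR called 4, 15 and 10, and DESeq2 96, 106 and 106. DESeq2 calls may thus include false ones, and edgeR can miss 4-fold changes. Ratios between catalytic genes used FPKM. Genes with 0 counts were read as up to 3 counts per library, a floor of 0.0965 to 0.129 CPM. Intervals and floors cover counting error only.

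The genes and lists were chosen with earlier results of these data known. Named were the catalytic, activator and inhibitor genes, untested genes, the highest and lowest gene of each role, called genes, and per comparison the 3 with the smallest p in each direction; of each related list, the gene with the smallest p. Of the genes selected from the related lists, 2 are not reported here. The copies and PSMG4 in the Kedah-Kelantan and Holstein Friesian comparisons, PSMD13, and genes named from fits without a library were chosen after their values were seen. Alternatives were DESeq2 1.42.0, limma 3.58.1 on FPKM, other scalings and filters, fits to 2 breeds, leaving out each library, and a fit blocked on the replicate number.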

Additional observations from a re-analysis of the deposited data

How the results depend on the processing

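The number of proteasome genes called was 0 in all 3 comparisons under other count scalings, other low-count filters, limma on FPKM and without haemoglobin genes. It was 2 with DESeq2 and 20 in the fit to 2 breeds for Kedah-Kelantan against Brangus, or 19 without PSMA8, which had to differ. Leaving out 1 library gave 0 to 9 for Kedah-Kelantan against Holstein Friesian, 0 to 11 for Brangus against Holstein Friesian and 0 to 20 for Kedah-Kelantan against Brangus. The replicate block also called 0, with medians of -0.22, 0.11 and -0.35 in that order, and 0 genes overall for both comparisons with Holstein Friesian. Same-numbered libraries of different breeds correlated at -0.01, 0.18 and 0.06 in their deviations. Each breed gives a single difference between its libraries, so these values cannot settle whether the libraries were paired.

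Over all genes, 1, 1 and 0 were called. DESeq2 called 108, 282 and 543. The fits to 2 breeds called 0, 0 and 2537, a mean count of at least 50 gave 0 for both comparisons with Holstein Friesian, RLE size factors 0 for Brangus against Holstein Friesian, and limma on log2(FPKM + 1) 2 for Kedah-Kelantan against Holstein Friesian. Without 1 library the counts were 0 to 2464, 0 to 4395 and 0 to 2458.

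The members' median stayed below 0 without any 1 library for Kedah-Kelantan, at -0.40 to -0.088 against Holstein Friesian and -0.40 to -0.31 against Brangus. For Brangus against Holstein Friesian it was -0.028 to 0.21. FPKM without TMM shifted the median of all genes to 0.18, -0.09 and 0.28 at a pseudocount of 0.1, and the members' median to -0.061, 0.0047 and -0.080. At a pseudocount of 1 it was -0.059 against Holstein Friesian and -0.078 against Brangus for Kedah-Kelantan. Relative to the median of all genes, the members stood at -0.24, 0.09 and -0.36 at a pseudocount of 0.1. At a pseudocount of 1 they stood at -0.18, 0.07 and -0.27. Taken without that shift, the FPKM fold changes of 31, 23 and 30 of 49 were below 0, against 41, 13 and 42 with TMM.

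Fold changes near 0 turned sign. For Kedah-Kelantan against Holstein Friesian, PSME3 gave 0.11 on FPKM at either pseudocount and -0.21 to 0.072 without 1 library; PSMF1 gave 0.0057 with upper-quartile scaling, 0.12 on FPKM and -0.19 to 0.10 without 1 library; PSME4 gave -0.032 with RLE and DESeq2, -0.037 with no filter, -0.040 with a mean count of at least 50, -0.010 in the 2 breeds, and -0.11 to 0.10 without 1 library. For Brangus against Holstein Friesian, upper-quartile scaling gave 0.013 for PSMB5, 0.0091 for PSMB9 and 0.0096 for PSMB10, FPKM gave -0.064 for PSME1, and leaving out 1 library gave -0.26 to 0.14 for PSMB5, -0.10 to 0.32 for PSMB6, -0.13 to 0.020 for PSMB9, -0.17 to 0.063 for PSMB10, -0.13 to 0.13 for PSME1, -0.26 to 0.036 for PSME2 and -0.12 to 0.28 for PSMF1. For Kedah-Kelantan against Brangus, FPKM gave 0.061 and 0.058 for PSMB5 and 0.10 for PSMF1, and leaving out 1 library gave -0.035 to 0.22 for PSME3 and -0.36 to 0.045 for PSMF1. Of single-gene values under alternatives, 845 kept direction and side of the threshold, 57 passed it newly and 40 turned sign. The cause was not tested.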
